A study of Mus musculus with 46 samples.

Results

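The Toll-like receptors and Cd14 form the sensing arm with which microglia, the resident macrophages of the brain, recognise microbial products. The 10 genes followed here were taken by symbol, with no threshold on a measured value: Tlr1, Tlr2, Tlr3, Tlr4, Tlr6, Tlr7, Tlr8, Tlr9, Tlr13 and Cd14. They were read in 3 expression tables of mouse brain covering 46 libraries in 11 groups. All 10 were among the 15285 genes listed for microglia sorted with or without lipopolysaccharide (LPS) and among the 19930 genes listed for microglia sorted 28 days after a short depletion. In the table of subventricular zone (SVZ) tissue, 6 of the 10 were among the 15695 genes, and Tlr1, Tlr6, Tlr8 and Tlr9 were not listed.

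Toll-like receptors at the cell surface recognise components of the microbial wall. TLR2 pairs with TLR1 or TLR6 to bind bacterial lipopeptides, and TLR4, together with MD-2 (the product of Ly96) and the co-receptor CD14, binds LPS of Gram-negative bacteria. TLR3, TLR7, TLR8, TLR9 and TLR13 sit in endosomes and recognise nucleic acids: double-stranded RNA for TLR3, single-stranded RNA for TLR7 and TLR8, unmethylated CpG DNA for TLR9 and bacterial ribosomal RNA for TLR13. The signal passes through the adaptors MyD88 and TRIF to NF-kB and interferon regulatory factors. In the brain, microglia and other macrophages are the main cells that carry most of these receptors, and astrocytes and neurons are known to express Tlr3.

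The study asked how myeloid cells refill the brain after inhibition of the receptor CSF1R, on which microglia depend for survival, and how the new cells behave. Male C57BL/6 mice, described in the study as 2 months old when treatment began, were fed PLX3397, a CSF1R inhibitor, at 600 ppm in chow, and were then returned to control chow for recovery. The SVZ table holds microdissected tissue of controls, of mice given PLX3397 for 14 days, and of mice with 5 days of recovery after those 14 days (n = 5 each). The LPS table holds CD11b+CD45int cells of controls and of white matter (WM) repopulating mice, which had 14 days of PLX3397 and 28 days of recovery. Mice of both kinds received no LPS (called 0 hr; n = 3 control and 4 WM repopulating) or were taken 6 hr (n = 5 and 4) or 24 hr (n = 4 and 4) after an intraperitoneal injection of 0.33 mg/kg of LPS. The GLOBAL table compares CD11b+CD45int cells of controls (n = 4) with those of GLOBAL repopulation mice (n = 3), which had 7 days of PLX3397 and 28 days of recovery. The sort gate takes cells by surface level and not by origin, so other myeloid cells with intermediate CD45 can lie in it.

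Values are FPKM, read fragments scaled both by gene length and by library size, so levels can be compared between genes within a table. The tables were normalized separately, and no test was made across them. Read totals recovered from the spacing of low values were 4570000 to 10600000 per library in the SVZ table, 5240000 to 10400000 in the LPS table and 2210000 to 5370000 in the GLOBAL table, all rounded. Differences are given on the log2(FPKM + 1) scale with their standard error (SE), and a gene was called where the Benjamini-Hochberg adjusted p of limma, over all tested genes of the table, was below 0.05. In the LPS table, microglial markers summed to 26210 to 30760 FPKM in control and 26600 to 31410 in WM repopulating libraries at 0 hr, and to 12850 to 14990 and 13830 to 16350 at 6 hr. All sorted libraries also held neutrophil and monocyte markers. The control library labelled replicate 2 at 6 hr stood far above the others for Cd14 and Tlr2, followed by replicate 4, and for the 10 genes, values that move by more than 1.5 times without both are given both ways. The values of other genes, the medians over the 10 genes and the correlations below were not recomputed without them.

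On the mouse build GRCm38 (GENCODE M21), the neighbours Tlr1 (chr5:64924679-64933563) and Tlr6 (chr5:64952031-64960097) lie on the minus strand of chromosome 5. Tlr7 (chrX:167304929-167330558) and Tlr8 (chrX:167242696-167264329) are neighbours on the minus strand of chromosome X, which also carries Tlr13 (chrX:106143204-106160493, plus strand). Tlr2 is at chr3:83836272-83841767 (minus), Tlr3 at chr8:45395665-45411080 (minus), Tlr4 at chr4:66827584-66930284 (plus) and Tlr9 at chr9:106222598-106226883 (plus). Tlr1 and Tlr6 share 505 stretches of 43 bases, 15.1% of those in Tlr1 and 13.6% of those in Tlr6, so the counting could have split reads between them and both values are uncertain to that extent. No other pair of members shares any such stretch. Tlr3 shares 7.32% of its exon bases with the opposite-strand gene Gm45542, and reads of the 2 cannot be told apart there without strand.

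Several members moved together after LPS, so the 250 bases before their RefSeq start sites (GRCm38.p6) were searched on both strands for 5 short motifs of factors that act in macrophages. Windows were present for 7 of the 10 members. The 30-base stretches below, on the gene's strand from 5′ to 3′, show a selection of the matches, from 5 members, with the motif in capitals.
Tlr2, NF-kB, chr3:83841762-83841791: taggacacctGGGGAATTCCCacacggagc
Tlr3, NF-kB, chr8:45410572-45410601: agttgtttctGGGAGTTTCCtgcttttgag
Tlr1, PU.1, chr5:64933563-64933592: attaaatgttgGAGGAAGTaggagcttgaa
Tlr1, GAS, chr5:64932909-64932938: gagtagctagcTTCATCGAAgcagagatgc
Tlr6, interferon-stimulated response element (ISRE), chr5:64959260-64959289: ctattctTTTCTCTTTCACTTTCtgtttga
Tlr9, AP-1, chr9:106222528-106222557: gcaaatgatgtgTGACTCAttgtaccacct
The Tlr2 match spans bases -173 to -163 from the start site and the Tlr3 match bases -211 to -202. The Tlr3 stretch and the GAS stretch of Tlr1 lie wholly within annotated exons of their own genes. The PU.1 and GAS stretches of Tlr1 come from different windows. The Tlr6 stretch holds 2 overlapping ISRE matches (GAAANNGAAA on the other strand), from -116 to -101. Over 32851 promoter windows of mouse genes, 7.25% held an NF-kB match, 2.98% an ISRE match, 2.44% a PU.1 match (GAGGAAGT) and 4.46% an AP-1 match (TGACTCA or TGAGTCA), and 7.02% held a GAS match (TTCNNNGAA), the element bound by STAT factors. A match is a description of the letters only.

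In unstimulated control microglia, Cd14 was the most abundant of the 10, at 771, 776 and 650 FPKM in the 3 libraries. Tlr2 followed at 78.4 ± 4.63 FPKM (SD, n = 3), Tlr13 at 64.0 ± 8.72 and Tlr7 at 45.2 ± 5.98, and the libraries of these neighbours in the order did not overlap. Tlr4 (17.1 ± 5.11), Tlr1 (14.5 ± 1.60), Tlr3 (14.5 ± 1.11) and Tlr6 (12.1 ± 3.97) overlapped one another. Tlr9 was lower, at 3.89 ± 0.403, and Tlr8 lay between 0 and 0.518 FPKM, which was 0 to 11 reads. The LPS receptor gene Tlr4 was thus listed far below its co-receptor Cd14 in each of these libraries.

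**Figure D1:**
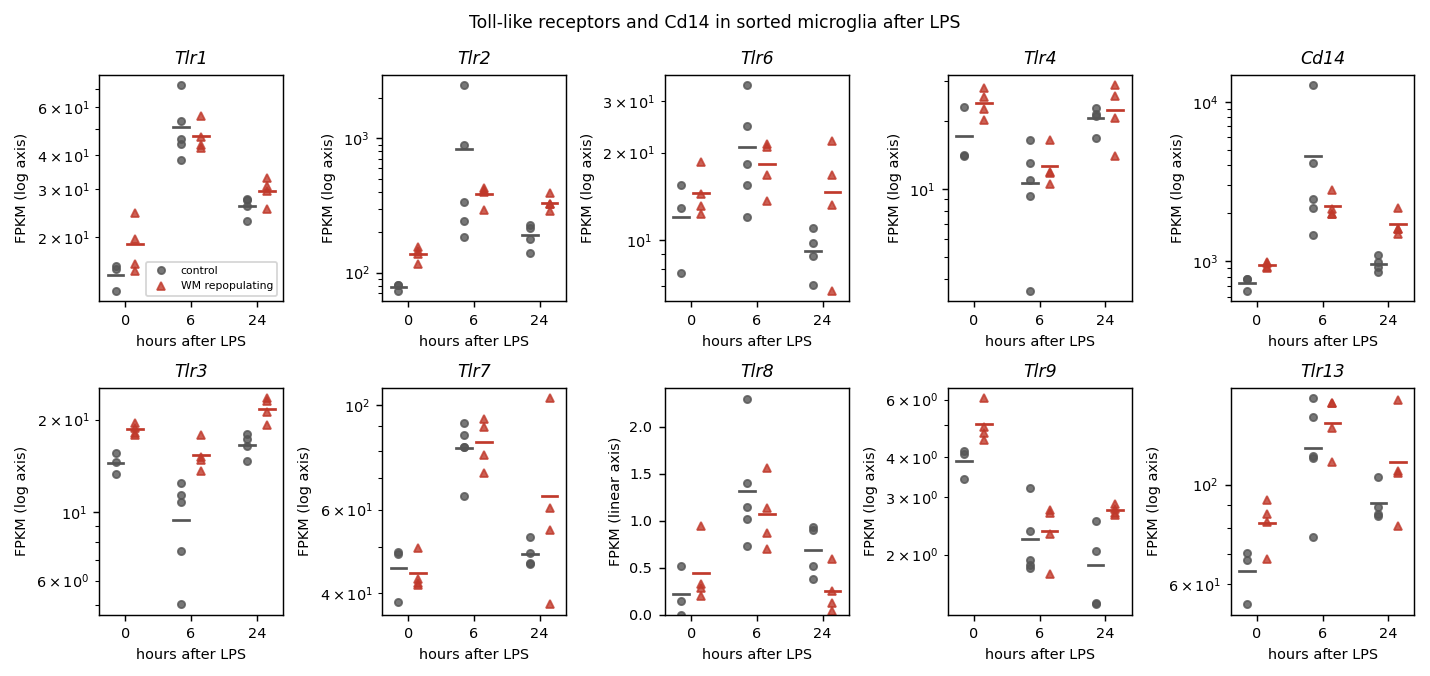
FPKM of the 10 genes in each sorted library (points) against hours after LPS, with the group mean as a bar, control in grey circles and WM repopulating in red triangles; the axis is linear for Tlr8 and logarithmic for the others. Cd14 and Tlr2 stood higher at 6 hr than at 0 hr in every library of both kinds, and control replicate 2 reached 12770 and 2504 FPKM.

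At 6 hr after LPS, 8 of the 10 genes had changed in control microglia, where 42.5% of all 12684 tested genes were called (21.4% higher and 21.1% lower). Higher were Cd14, Tlr2, Tlr1, Tlr7, Tlr8 and Tlr13, and lower were Tlr3 and Tlr9. Tlr8 passed the filter on low values only through 6 hr libraries, where it was high, so its call carries no weight in that count, and 7 of the other 9 were called. The median difference over the 10 genes was 0.85, against 0.01 over all genes tested. In WM repopulating microglia 7 of the 10 had changed, beside 38.8% of all genes (19.3% higher and 19.5% lower): Cd14, Tlr2, Tlr1, Tlr7 and Tlr13 were higher, and Tlr4 and Tlr9 lower. Their median difference was 0.63, against -0.00468 over all genes. The same 4 Toll-like receptors and Cd14 were therefore called higher in both kinds of mice, and Tlr9 was called lower in both.

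Cd14, the co-receptor that hands LPS to TLR4, rose in both kinds of mice. Control libraries held 2450, 12770, 1457, 4150 and 2161 FPKM of Cd14 at 6 hr, against the 650 to 776 FPKM of 0 hr. The 5 libraries spread more widely among themselves (SD 4674 FPKM) than their mean differed from 0 hr, and each was above every 0 hr library. The difference was 2.19 ± 0.39 (SE; adjusted p = 7.58e-05), and without replicates 2 and 4 it was 1.435 (adjusted p = 1.68e-06). In WM repopulating mice Cd14 held 918, 981, 903 and 975 FPKM at 0 hr and 2123, 1990, 2791 and 1976 FPKM at 6 hr. These groups did not overlap either, and the difference was 1.22 ± 0.38 (adjusted p = 0.0126).

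Tlr2, the shared partner of the lipopeptide receptors, had the largest 6 hr difference among the 10 genes in each kind of mouse. Control libraries at 0 hr held 80.8, 73.1 and 81.4 FPKM, and those at 6 hr held 335, 2504, 185, 889 and 243 FPKM. The groups did not overlap, and the 2 libraries that were highest for Cd14 were also highest for Tlr2. The rise was 2.68 ± 0.49 (adjusted p = 9.71e-05), or 1.645 (adjusted p = 8.77e-07) without those libraries. WM repopulating libraries went from 155, 117, 145 and 139 FPKM at 0 hr to 401, 416, 423 and 293 FPKM at 6 hr. Again the groups did not overlap, and the rise was 1.45 ± 0.47 (adjusted p = 0.0169).

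The 2 genes whose products pair with TLR2 were listed at lower levels. Tlr1 stood at 15.7, 15.2 and 12.7 FPKM in control libraries at 0 hr and at 44.0, 72.3, 38.5, 53.5 and 45.9 FPKM at 6 hr, with no overlap and a rise of 1.71 ± 0.17 (adjusted p = 3.36e-08). In WM repopulating libraries Tlr1 went from 24.6, 15.1, 15.97 and 19.6 FPKM to 55.6, 46.4, 42.3 and 43.5 FPKM, a rise of 1.29 ± 0.17 (adjusted p = 1.57e-06). These were the smallest adjusted p values among the 10 genes in either kind of mouse. Its chromosomal neighbour Tlr6 overlapped between 0 and 6 hr in both kinds of mice. For Tlr6 the difference was 0.71 ± 0.30 in control (adjusted p = 0.0619, or 0.35 without replicates 2 and 4) and 0.30 in WM repopulating mice (adjusted p = 0.449).

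Tlr4, the signalling receptor for LPS itself, stood lower at 6 hr on average in both kinds of mice. Control libraries held 14.1, 22.99 and 14.2 FPKM at 0 hr and 10.97, 3.54, 16.5, 9.28 and 13 FPKM at 6 hr. They overlapped through replicate 3 of 6 hr, and the difference of -0.73 ± 0.30 lay at the threshold (adjusted p = 0.05003) and was -0.30 without replicates 2 and 4. WM repopulating libraries held 20.2, 22.6, 25.6 and 28.2 FPKM at 0 hr and 16.5, 10.5, 11.7 and 11.9 FPKM at 6 hr. Here the groups did not overlap, and Tlr4 fell (-0.89 ± 0.29, adjusted p = 0.0169). Without replicate 2 of the WM repopulating 6 hr libraries the adjusted p was 0.0505.

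Among the endosomal receptors, the single-stranded RNA receptor Tlr7 and the ribosomal RNA receptor Tlr13 rose in both kinds of mice. Tlr7 held 48.9, 48.5 and 38.3 FPKM in control libraries at 0 hr and 91.3, 64.1, 81.4, 86.4 and 81.4 FPKM at 6 hr, a rise of 0.82 ± 0.20 (adjusted p = 0.00154). In WM repopulating libraries Tlr7 went from 42.7, 42.0, 49.8 and 41.6 FPKM to 71.7, 93.4, 89.6 and 78.4 FPKM, a rise of 0.90 ± 0.19 (adjusted p = 0.000573). No 6 hr library overlapped 0 hr in either kind. Tlr13 went from 54.1 to 70.2 FPKM at 0 hr up to 76.6 to 156 FPKM at 6 hr in control (0.88 ± 0.20, adjusted p = 0.000822) and from 68.2 to 92.2 up to 112 to 152 FPKM in WM repopulating mice (0.73 ± 0.19, adjusted p = 0.00340).

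Tlr8 was the lowest of the 10 throughout. Control libraries held 0.518, 0 and 0.148 FPKM at 0 hr and 1.40, 1.14, 0.729, 1.02 and 2.30 FPKM at 6 hr, with no overlap and a rise of 0.91 ± 0.22 (adjusted p = 0.00210). In WM repopulating libraries Tlr8 was at 0.945, 0.201, 0.285 and 0.325 FPKM and then at 1.14, 1.56, 0.699 and 0.867 FPKM, which overlapped (0.53 ± 0.22, adjusted p = 0.0559). It reached 1 FPKM in 6 hr libraries alone, which decided that it was tested. With few reads behind each value, fold changes of Tlr8 are poorly fixed and the added 1 FPKM shrinks them.

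Tlr3 and Tlr9 moved the other way. Tlr3, the double-stranded RNA receptor, fell in control from 15.5, 13.3 and 14.5 FPKM to 10.8, 5.03, 7.51, 11.4 and 12.4 FPKM (-0.62 ± 0.18, adjusted p = 0.00835, or 0.0822 when fitted on only these 2 groups). The groups did not overlap, and the lowest value was that of replicate 2, the library highest for Cd14 and Tlr2. In WM repopulating libraries Tlr3 held 18.8, 18.1, 19.6 and 17.9 FPKM at 0 hr and 17.9, 13.7, 15.1 and 14.7 FPKM at 6 hr, which overlapped by 1 library (-0.27 ± 0.18, adjusted p = 0.251). Tlr9, the CpG DNA receptor, fell in both: from 4.07, 3.43 and 4.17 to 2.37, 3.20, 1.86, 1.93 and 1.82 FPKM in control (-0.61 ± 0.17, adjusted p = 0.00584). Its WM repopulating libraries went from 4.73, 4.93, 4.52 and 6.06 to 2.70, 2.31, 1.75 and 2.74 FPKM, with no overlap in either kind of mouse (-0.85 ± 0.17, adjusted p = 0.000255).

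Markers of other myeloid cells moved with these comparisons. The summed level of 6 monocyte markers (Ly6c2 and Ccr2 among them) ranged from 103 to 334 FPKM in control and 125 to 397 FPKM in WM repopulating libraries at 0 hr, and from 1186 to 2376 and 1195 to 3313 FPKM at 6 hr. The 7 neutrophil markers summed to 1568 to 7602 and 2473 to 9248 FPKM at 0 hr and to 835 to 5333 and 401 to 9027 FPKM at 6 hr. Control replicate 2 at 6 hr had the highest neutrophil sum of its group (5333 FPKM) and the lowest monocyte sum (1186 FPKM). Control replicate 4 had the next highest neutrophil sum (3808 FPKM), with a monocyte sum of 2225 FPKM. Choroid plexus markers summed to 99.8 to 1372 FPKM in control and 162 to 610 FPKM in WM repopulating libraries at 6 hr. Their part in the changes of the Toll-like receptors and Cd14 was not tested.

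**Figure D2:**
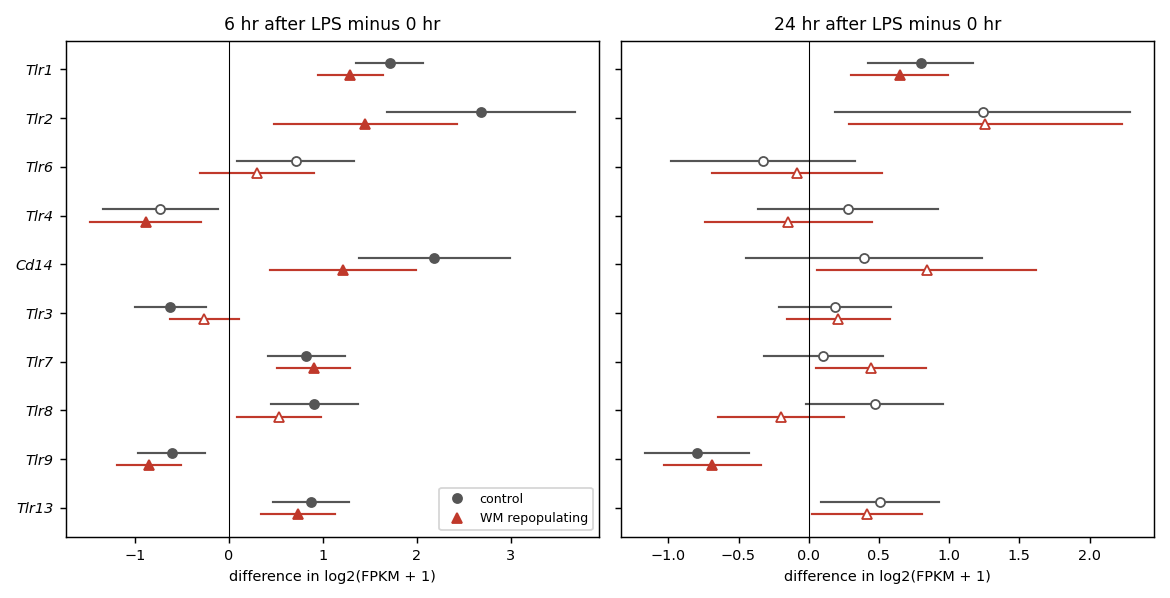
Difference in log2(FPKM + 1) from 0 hr at 6 hr (left) and 24 hr (right) after LPS for each gene, with 95% intervals; filled symbols passed an adjusted p of 0.05. At 6 hr 8 genes were called in control (grey) and 7 in WM repopulating microglia (red), and at 24 hr Tlr1 and Tlr9 in each.

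By 24 hr only Tlr1 and Tlr9 were still called against 0 hr, in control as in WM repopulating mice. The background was 21.3% of genes in control (12.1% higher and 9.23% lower) and 18.8% in WM repopulating mice (10.5% higher and 8.29% lower), close to the share of members called. Tlr1 stood at 22.95, 27.3, 25.9 and 27.5 FPKM in control (0.80 ± 0.18, adjusted p = 0.00259) and at 32.9, 29.5, 30.7 and 25.3 FPKM in WM repopulating libraries (0.65 ± 0.17, adjusted p = 0.00796). Every 24 hr library was above every 0 hr library of its kind. Tlr9 was still lower than at 0 hr, at 1.41, 2.05, 2.54 and 1.42 FPKM in control (-0.79 ± 0.18, adjusted p = 0.00249) and at 2.69, 2.66, 2.87 and 2.77 FPKM in WM repopulating libraries (-0.69 ± 0.17, adjusted p = 0.00485).

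Tlr2 at 24 hr held 226, 213, 177 and 141 FPKM in control and 325, 394, 324 and 288 FPKM in WM repopulating libraries. All of these lay above 0 hr, but neither difference passed (1.24 ± 0.51, adjusted p = 0.0866, and 1.26 ± 0.47, adjusted p = 0.0648). Cd14 held 914, 985, 856 and 1095 FPKM in control at 24 hr and 1479, 2161, 1594 and 1594 FPKM in WM repopulating libraries, again above 0 hr without passing (adjusted p = 0.534 and 0.127). Fitted on only the 2 groups compared, where 17.5% of genes were called in control and 24.6% in WM repopulating mice, Tlr2 passed in both (adjusted p = 0.00172 and 3.64e-05), Cd14 in WM repopulating mice (adjusted p = 0.000686, against 0.0979 in control) and Tlr13 in control (adjusted p = 0.0443).

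Between 6 and 24 hr, 7 members changed in control, where 28.3% of all genes were called. Cd14 (-1.80 ± 0.36, adjusted p = 0.000562), Tlr2 (-1.44 ± 0.45, adjusted p = 0.0175), Tlr1, Tlr6 and Tlr7 fell, and Tlr3 (0.81 ± 0.17, adjusted p = 0.000889) and Tlr4 (1.01 ± 0.27, adjusted p = 0.00702) rose. Tlr4 then stood at 21.5, 21.1, 22.8 and 16.8 FPKM, above every 6 hr library. The call of Tlr2 was lost without replicate 4 of 6 hr (adjusted p = 0.0530) or replicate 4 of 24 hr (adjusted p = 0.0542), and without replicates 2 and 4 of 6 hr together 4 of the members were called, with Tlr2 (-0.41), Tlr4 (0.58) and Tlr6 (-0.68) lost (adjusted p = 0.130, 0.0634 and 0.0947) and Cd14 at -1.04. The fit of only these 2 groups also lost Tlr2 (adjusted p = 0.128). In WM repopulating mice 2 members fell, beside 15.7% of all genes: Tlr1 (-0.65 ± 0.17, adjusted p = 0.00976) and Tlr8, from 0.699 to 1.56 FPKM to 0.122, 0.593, 0.247 and 0.0381 FPKM (-0.73 ± 0.22, adjusted p = 0.0238). The Tlr8 call was lost without any 1 of 4 libraries (6 hr replicates 1 and 2, 24 hr replicates 1 and 4), with adjusted p values of 0.0529 to 0.0924. Tlr8 passed the filter on low values only through 6 hr libraries, where it was high. Its fall therefore carries no weight in that count, which leaves Tlr1. Tlr2 (-0.20, adjusted p = 0.823) and Cd14 (-0.38, adjusted p = 0.550) did not pass in WM repopulating mice. Fitted on only these 2 groups, where 21.3% of genes were called, Tlr3 (0.48, adjusted p = 0.0216) and Tlr4 (0.74, adjusted p = 0.0305) were called higher at 24 hr.

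Markers also differed between 24 hr and the earlier times. At 24 hr microglial markers summed to 14000 to 22590 FPKM in control and 18980 to 24350 FPKM in WM repopulating libraries, below 0 hr in both. Monocyte markers, at 432 to 552 and 130 to 664 FPKM, were below 6 hr in both kinds of mice and above 0 hr without overlap in control. Neutrophil markers, at 6111 to 15090 and 3017 to 6482 FPKM, were above 6 hr without overlap in control. Choroid plexus markers (36.3 to 55.9 FPKM) and astrocyte markers (37.3 to 43.04 FPKM) in control were below both earlier times, and choroid plexus markers were also lowest at 24 hr in WM repopulating libraries (12.2 to 32.6 FPKM). Border-associated macrophage markers in WM repopulating libraries went from 46.7 to 76.7 FPKM at 6 hr to 17.6 to 38.4 FPKM at 24 hr without overlap. Their part in the changes of the 10 genes was not tested.

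Whether the response to LPS differed between WM repopulating and control microglia was tested directly, as a difference of the 2 responses in limma. None of the 10 genes passed in any of the 3 intervals. The background of called genes was 0.0237% for 6 hr against 0 hr, 0.0867% for 24 hr against 0 hr and 0.158% for 24 hr against 6 hr. At an unadjusted p below 0.05 the members numbered 0, 1 (Tlr8) and 1 (Cd14), beside 7.2%, 8.71% and 9.52% of all genes, which is about the same share. The larger mean rise of Tlr2 at 6 hr in control gave a difference of responses of -1.23 (95% interval -2.62 to 0.17, adjusted p = 0.726), and that of Cd14 gave -0.97 (-2.09 to 0.15, adjusted p = 0.734). Without control 6 hr replicates 2 and 4 these were -0.19 and -0.22 (adjusted p = 0.952 and 0.939). For the interval from 6 to 24 hr Cd14 gave 1.42 (0.34 to 2.49, unadjusted p = 0.0118, adjusted p = 0.368), and 0.66 without those replicates (adjusted p = 0.384). With all libraries, both 6 hr intervals reach beyond a 4-fold smaller rise in WM repopulating mice and also include no difference.

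Without LPS, each of the 10 genes except Tlr7 had a higher mean in WM repopulating than in control microglia, but none passed the test across the table, where 1.21% of genes were called. At an unadjusted p below 0.05, where 11.9% of all genes lay, there was also none. Every WM repopulating library was above every control library for 4 genes, Tlr2, Tlr3, Tlr9 and Cd14, as for 7.61% of all genes tested. Tlr2 was at 117 to 155 FPKM against 73.1 to 81.4 FPKM, a ratio of means of 1.77 (0.81 ± 0.51, 95% interval -0.24 to 1.86, adjusted p = 0.572). Fitted on only these 2 groups, where 1.76% of genes were called, the same difference had an SE of 0.12 and an adjusted p of 0.00594. Cd14 was at 903 to 981 FPKM against 650 to 776 FPKM (ratio 1.29, adjusted p = 0.784, and 0.0965 on only these groups). The Tlr2 call therefore depends on whether the spread of the other groups enters, the control 6 hr libraries among them. Markers of other cells also separated these groups: choroid plexus markers summed to 76.5 to 222 FPKM in control and 283 to 740 FPKM in WM repopulating libraries, lymphocyte markers to 7.23 to 29.9 and 30.4 to 55.5 FPKM, endothelial markers to 8.40 to 12.9 and 2.74 to 5.36 FPKM, and astrocyte markers to 55.3 to 61.4 and 38.0 to 52.3 FPKM. Their part in the differences was not tested.

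At 6 hr after LPS, 0 of the 10 genes passed in limma between WM repopulating and control microglia, beside 0.323% of all genes, and 1 (Tlr3) had an unadjusted p below 0.05, as did 9.18% of all genes. For Tlr3 the libraries were separate, with WM repopulating libraries at 13.7 to 17.9 FPKM and control libraries at 5.03 to 12.4 FPKM. The ratio of means was 1.63, and the difference was 0.70 ± 0.17 (unadjusted p = 0.000376, adjusted p = 0.0726). Without replicate 5 of the control libraries its adjusted p was 0.0327. Without control replicates 2 and 4 the Tlr3 difference was 0.56 (adjusted p = 0.141). Tlr2 and Cd14 overlapped, and the sign of their mean difference rested on few libraries. Tlr2 went from -0.42 to 0.62 and Cd14 from -0.60 to 0.15 without control replicates 2 and 4. Without replicate 2 alone Tlr2 was at 0.155, while Cd14 stayed below 0 with any 1 library left out.

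At 24 hr none of the members passed, beside 3.97% of all genes, and Tlr9 and Cd14 had an unadjusted p below 0.05, as 17.6% of all genes did, a share close to 2 of 10. Every WM repopulating library was above every control library for Tlr2, Tlr3, Tlr9 and Cd14, the same 4 genes as at 0 hr, and for 5.76% of all genes tested. The ratio of means was 1.76 for Tlr2 (0.82 ± 0.47, adjusted p = 0.375) and 1.77 for Cd14 (0.82 ± 0.38, adjusted p = 0.256). For Tlr3 it was 1.31 (adjusted p = 0.283), and Tlr9 differed by 0.41 ± 0.17 (adjusted p = 0.177). Fitted on only these 2 groups, beside 2.27% of all genes, Tlr2 (SE 0.17, adjusted p = 0.0356) and Cd14 (SE 0.17, adjusted p = 0.0319) were called. Neutrophil markers summed to 6111 to 15090 FPKM in control and 3017 to 6482 FPKM in WM repopulating libraries at 24 hr, monocyte markers to 432 to 552 and 130 to 664 FPKM, and border-associated macrophage markers to 50.4 to 66.9 and 17.6 to 38.4 FPKM. Endothelial markers (7.73 to 12.7 against 1.63 to 7.19 FPKM) and choroid plexus markers (36.3 to 55.9 against 12.2 to 32.6 FPKM) did not overlap, the latter in the opposite order to 0 hr, and the part of all these cells in the differences was not tested. The median difference over the members was 0.34 at 0 hr, -0.02 at 6 hr and 0.34 at 24 hr, against 0.01, 0.00221 and 0.02 over all genes. The 6 hr median includes control replicates 2 and 4, without which Tlr2 and Cd14 changed sign, so its own sign is not settled.

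**Figure D3:**
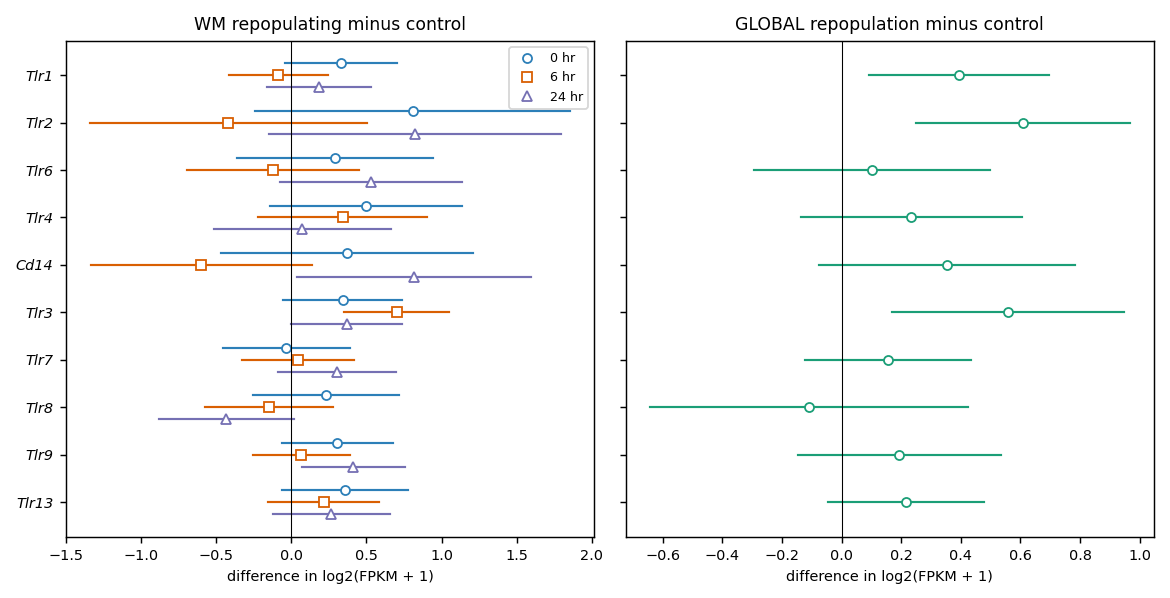
Difference in log2(FPKM + 1) from control for WM repopulating microglia at 0, 6 and 24 hr after LPS (left) and for GLOBAL repopulation (right), with 95% intervals; open symbols did not pass an adjusted p of 0.05. None is filled, and Tlr2, Tlr3 and Cd14 lie to the right of 0 in every set but those of Tlr2 and Cd14 at 6 hr.

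The GLOBAL table gave an experiment with separate libraries, in which depletion had lasted 7 days. limma called 0% of its 16651 tested genes, and 1504 genes (9.03%) had an unadjusted p below 0.05. Of the 10 members 3 were among those, all higher after repopulation. Tlr2 was at 59.9, 52.7, 38.5 and 49.3 FPKM in control and at 82.4, 68.4 and 77.8 FPKM after repopulation (0.61 ± 0.16, unadjusted p = 0.00335, adjusted p = 0.326). Tlr3 was at 10.6, 7.23, 8.52 and 7.66 FPKM against 12.1, 11.9 and 14.8 FPKM (0.56 ± 0.18, unadjusted p = 0.00928, adjusted p = 0.407). Neither gene overlapped between the groups, and the ratio of means was 1.52 for both.

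Tlr1 in the same table was at 30.3, 36.7, 30.2 and 38.0 FPKM in control and at 43.6, 45.4 and 44.5 FPKM after repopulation (0.39 ± 0.14, unadjusted p = 0.0157, adjusted p = 0.468). Tlr7 and Tlr13 did not overlap either, with unadjusted p values of 0.246 and 0.0948. Every repopulated library was thus above every control library for 5 of the 10 genes, as for 5.83% of all genes tested. Tlr4, Tlr6, Tlr8, Tlr9 and Cd14 overlapped. Cd14 held 443, 373, 302 and 532 FPKM in control and 567, 444 and 546 FPKM after repopulation (0.35, adjusted p = 0.605). The members' median difference was 0.23, against 0.00776 over all genes. Neutrophil markers summed to 1870 to 21360 FPKM in control and 1181 to 4251 FPKM after repopulation, monocyte markers to 168 to 926 and 97.8 to 308 FPKM, and microglial markers to 15990 to 20710 and 17930 to 18730 FPKM. Endothelial markers (15.7 to 23.3 against 8.34 to 13.1 FPKM) and astrocyte markers (30.3 to 32.6 against 24.3 to 28.7 FPKM) did not overlap, and the part of all these cells was not tested.

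**Figure D4:**
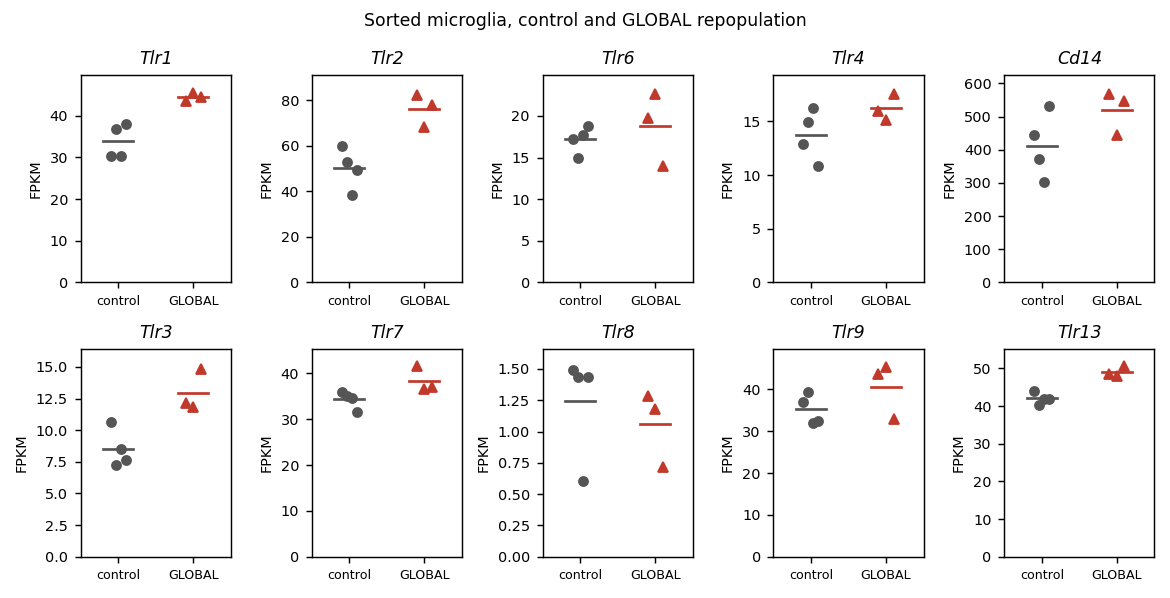
FPKM of the 10 genes in each sorted library of the GLOBAL table (points, linear axes from 0), with group means as bars. Repopulated libraries (red triangles) lie above all control libraries (grey circles) for Tlr1, Tlr2, Tlr3, Tlr7 and Tlr13, as for 5.83% of all genes, and none of these differences passed an adjusted p of 0.05.

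In whole SVZ tissue the levels were far lower, and fewer cells of a type and less RNA per cell cannot be told apart in such bulk samples. Control replicate 1 stood apart, with choroid plexus markers summing to 21650 FPKM against 23.8 to 129 FPKM in the other controls and 14.5 to 48.0 FPKM in the treated groups. It also held the highest Tlr2 and Tlr7 of its group, and results are given without it below. Tlr3 and Cd14 passed the filter on low values (FPKM of 1 or more in at least 3 libraries). Cd14 did so through the control libraries, where it was high, and was also called in both comparisons with control without the filter. Cd14 held 3.32, 2.19, 3.12, 2.19 and 3.44 FPKM in control, 15 to 49 reads per library. After 14 days of PLX3397 it was at 0, 0.189, 0.0649, 0.0699 and 0.243 FPKM, which was 0 to 3 reads. The groups did not overlap, and Cd14 fell (-1.78 ± 0.22, adjusted p = 8.47e-05) to 3.97% ± 3.48 (SD, n = 5) of the control mean, where 1.26% of all genes were called. After 5 days of recovery Cd14 was at 0.124, 2.19, 0.997, 0.345 and 0.254 FPKM. Replicate 2 came level with the lowest control libraries, while 3 others stayed below 0.35 FPKM. The group was still below control (-1.21 ± 0.22, adjusted p = 0.00644), where 1.27% of genes were called, and was not called against PLX3397 (0.57 ± 0.22, unadjusted p = 0.0217, adjusted p = 0.249), where 0.325% were. Without control replicate 1 the Cd14 differences from control were -1.735 (adjusted p = 0.000366) and -1.17 (adjusted p = 0.0204).

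Tlr3 stood apart from the other listed members in the tissue. It held 2.15, 2.53, 1.58, 0.797 and 1.31 FPKM in control, 1.57, 1.66, 1.55, 1.48 and 1.51 FPKM after PLX3397 and 2.32, 1.38, 1.35, 1.51 and 2.02 FPKM after recovery. All 3 groups overlapped, and the mean after PLX3397 was 92.8% ± 4.09 of control (-0.03 ± 0.16, adjusted p = 0.999). After recovery it was 103% ± 25.9 (0.05, adjusted p = 0.895). Astrocyte markers summed to 1039 to 1473 FPKM in control, 1362 to 1510 FPKM after PLX3397 and 1492 to 2380 FPKM after recovery. Endothelial markers summed to 149 to 176, 126 to 168 and 134 to 187 FPKM, and the part of either cell type in the Tlr3 values was not tested.

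Tlr2, Tlr4, Tlr7 and Tlr13 had fewer than 30 reads in every SVZ library and were tested only without the filter, where 1.49% of genes were called after PLX3397 and 1.52% after recovery, each against control. All 4 were lower after PLX3397, and no library overlapped control, which held for 2.1% of all listed genes. Tlr13 was at 0.430 to 0.681 FPKM in control and 0 to 0.0452 FPKM after PLX3397, 2.56% ± 3.66 of control (adjusted p = 4.58e-06). Tlr7 was at 0.178 to 0.576 FPKM and then at 0 in 4 libraries and 0.0279 FPKM, 1 read, in the other (1.62% ± 3.63 of control, adjusted p = 0.00289). Tlr2 (0.604 to 1.06 FPKM, then 0.0636 to 0.272 FPKM) kept 19.2% ± 9.40 of control (adjusted p = 0.000203), and Tlr4 (0.191 to 0.520 FPKM, then 0.0758 to 0.147 FPKM) kept 27.5% ± 8.95 (adjusted p = 0.0323). Without control replicate 1 the adjusted p values were 1.43e-05 for Tlr13, 0.00351 for Tlr7, 0.0005 for Tlr2 and 0.041 for Tlr4.

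After 5 days of recovery Tlr2 was at 49.5% ± 15.8 of control, Tlr4 at 39.2% ± 16.2, Tlr13 at 14.5% ± 7.72 and Tlr7 at 8.42% ± 8.19. Tlr2 (adjusted p = 0.0466), Tlr7 (adjusted p = 0.00752) and Tlr13 (adjusted p = 4.11e-05) were below control, and Tlr4 overlapped it (adjusted p = 0.1001). Without control replicate 1 the Tlr2 call was lost (adjusted p = 0.116), and Tlr7 (adjusted p = 0.00966) and Tlr13 (adjusted p = 0.000118) still passed. None of the 4 was called between recovery and PLX3397, where Tlr2 gave 0.27 ± 0.09 (adjusted p = 0.202). The median over 10 microglial markers was 0.750% of control after PLX3397 and 5.11% after recovery. Border-associated macrophage markers summed to 3.09 to 6.03, 1.10 to 2.14 and 1.38 to 2.08 FPKM in the 3 groups and 2 listed neutrophil markers to 0.558 to 3.17, 0 to 4.22 and 1.71 to 15.01 FPKM, and their part in these values was not tested.

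**Figure D5:**
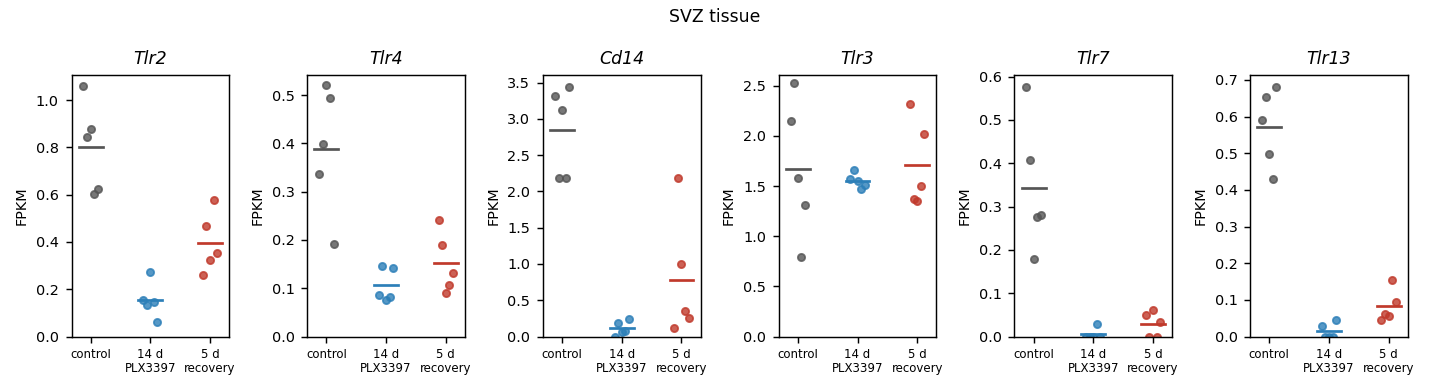
FPKM of the 6 listed genes in each SVZ library (points, linear axes from 0) with group means as bars, for control, 14 days of PLX3397 and 5 days of recovery (n = 5 each). Tlr3 overlapped among all 3 groups, while each of the other 5 genes was below every control library after PLX3397.

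The partners of these receptors were followed in a list of 43 further genes of the pathway (surface partners, trafficking proteins, adaptors, kinases and ligases, negative regulators and other receptors). Of 41 tested in the LPS table, 18 were called at 6 hr in control, 8 higher and 10 lower, beside 42.5% of all genes, and 20 in WM repopulating mice, 7 higher and 13 lower, beside 38.8%. Of all genes, 21.4% were called higher and 21.1% lower in control, and 19.3% and 19.5% in WM repopulating mice. The control count is near its background, and the list as a set was not tested. Ikbke, which encodes a kinase that activates interferon regulatory factors, rose from 0.795 to 47.0 FPKM in control (4.70 ± 0.37, adjusted p = 8.37e-10) and from 1.02 to 32.6 FPKM in WM repopulating mice (4.01, adjusted p = 6.59e-09). The adaptor Myd88 rose from 58.5 to 154 FPKM (adjusted p = 1.87e-05) and from 72.3 to 131 FPKM (adjusted p = 0.00258). Higher in both were also Irak1, Irak3, Peli1 and Tirap.

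Several partners of the surface receptors were lower at 6 hr. Ly96, which encodes the MD-2 subunit that binds LPS with TLR4, fell from 65.6 to 32.0 FPKM in control (adjusted p = 9.67e-05) and from 71.5 to 34.4 FPKM in WM repopulating mice. Cd180, a TLR4-related receptor, fell from 30.9 to 5.33 FPKM in control (-2.35 ± 0.21, adjusted p = 4.29e-09) and from 31.6 to 6.42 FPKM in WM repopulating mice (adjusted p = 1.32e-08), and its partner Ly86 was called lower in both. Tlr12, a receptor for a parasite protein, fell from 12.3 to 2.01 FPKM in control (adjusted p = 4.44e-07) and from 15.98 to 3.09 FPKM in WM repopulating mice (adjusted p = 5.88e-07). Unc93b1, the chaperone that carries the nucleic acid receptors to endosomes, fell from 1100 to 579 FPKM in control (adjusted p = 0.00680) and was called lower in WM repopulating mice.

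Between WM repopulating and control mice, 1 of the 41 was called at 0 hr (1.21% of all genes), Tmed7, a trafficking protein for TLR4 (47.0 against 24.7 FPKM, 0.94 ± 0.18, adjusted p = 0.00865). At 6 hr (0.323% of all genes) it was Cd36, a scavenger receptor that assists TLR2 with TLR6 (4.94 FPKM in WM repopulating and 1.14 FPKM in control mice, 1.504 ± 0.25, adjusted p = 0.00399), and at 24 hr (3.97% of all genes) limma called none. No partner was called in the differences of responses or among the 42 tested in the GLOBAL table. In SVZ tissue 3 of 34 were below control both after PLX3397 and after recovery, beside 1.26% and 1.27% of all genes called: Unc93b1, Ly86 and Pik3ap1, an adaptor that links the receptors to PI3K. Ly86 went from a mean of 17.6 FPKM to 0.166 FPKM after PLX3397 (adjusted p = 4.17e-10) and stood at 1.91 FPKM after recovery, the single partner called higher than after PLX3397 (1.28, adjusted p = 0.00559). This list was put together with earlier results of these data known.

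Over the 24 sorted libraries of the LPS table, the gene with the log2(FPKM + 1) profile most like that of Tlr2 was Gpr84 (Pearson r = 0.979), followed by Bcl2a1a (0.956) and Ch25h (0.955). For Cd14 it was Dennd4a (0.957), for Tlr1 Slfn8 (0.960), followed by Oasl1 (0.955) and Cxcl10 (0.953), and for Tlr3 Lat2 (0.914). Tlr6 was most like Tapbp (0.910), Tlr7 like Ddit4 (0.916), Tlr8 like Napsa (0.875), Tlr9 like Dcaf12 (0.908) and Tlr13 like Bcl2a1a (0.918). Among the members themselves, Tlr2 and Cd14 were most alike (0.947), Tlr1 and Tlr2 followed at 0.865, Tlr3 and Tlr4 had 0.771, and Tlr4 and Cd14 ran opposite (-0.768). These libraries share 6 groups, so the values describe mostly the course after LPS, and they carry no test.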

How the data were processed

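RNA was sequenced from 46 libraries. Per the labels' processing notes and the study's methods, the authors aligned reads to mm10 with STAR, counted them per gene with featureCounts and deposited FPKM values per library, without read counts. The labels and the methods describe different library preparations, and strand use in counting is not given in the sources used here. Read totals were recovered from the spacing of low FPKM values (100% of low genes in the LPS table and 99.9% in the others gave whole reads).

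Values were tested as log2(FPKM + 1) with limma 3.58.1 (trend, R 4.3.3) over genes with FPKM of 1 or more in at least 3 libraries. All groups of a table entered 1 fit, p-values were two-sided and Benjamini-Hochberg adjusted over all tested genes, and the fit was checked on simulated data. Nothing in the labels says more than that replicates are separate samples, so p-values measure the spread between these libraries. No libraries held identical values. Alternatives were another pseudocount (0.1), other filters, quantile normalization, a replicate block, fits of only the groups compared, a fold limit and leaving out libraries; leaving out control 6 hr replicates 2 and 4 together and SVZ control replicate 1 with the filter off were chosen after seeing the data.

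Named genes were the 10 members and, for likeness, the genes with the highest Pearson r over the 24 sorted libraries (the gene most like Tlr4 is not reported here). The members and lists were chosen with earlier results of these data known. Promoter sequences are from RefSeq (GRCm38.p6).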

Additional observations from a re-analysis of the deposited data

Results flagged for a closer look

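Within groups of 4 or 5 libraries, 6 of 78 pairs of member and group had a library far from the others (Dixon's 95% criterion, which chance meets in about 1 in 20 groups). Cd14 was at 12770 FPKM in control replicate 2 at 6 hr after LPS, where the next library was at 4150 FPKM. Cd14 was at 2161 FPKM in WM repopulating replicate 2 at 24 hr, with the next at 1594 FPKM.

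Tlr7 stood at 49.8 FPKM in WM repopulating replicate 3 at 0 hr, above 42.7 FPKM in the next library. In SVZ tissue after PLX3397, Tlr7 was at 0.0279 FPKM in replicate 4, which was 1 read, and at 0 in the other libraries. Tlr8 was at 0.945 FPKM in WM repopulating replicate 1 at 0 hr, with the next at 0.325 FPKM. In GLOBAL control replicate 3, Tlr8 was at 0.602 FPKM, below 1.43 FPKM in the nearest library.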

How the results depend on the processing

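Of the 1120 values for single genes recomputed under another setting, 1062 kept their direction and their side of the threshold, 29 gained a call, 12 lost one and 17 changed sign. They cover 69 pairs of member and comparison, followed mostly because their unadjusted p was below 0.05, with a few set genes added. Fits that left out 1 library gave 620 of them, so these counts do not describe all results. Without the filter on low values, 5 members were called in SVZ tissue after PLX3397 and 4 after recovery, each against control, since 4 more members entered the test, and 5 and 3 when control replicate 1 was left out as well. Fits of only the groups compared called 1 member between WM repopulating and control mice at 0 hr, 2 at 24 hr, and 4 each for 24 hr against 0 hr in control and in WM repopulating mice, the last also 4 under quantile normalization. A stricter filter left 1 for 24 hr against 6 hr in WM repopulating mice, and leaving out control 6 hr replicates 2 and 4 left 4 for that interval in control. Over all genes in WM repopulating mice, the alternative settings that left out no library called 1891 to 2477 for 24 hr against 6 hr. For 24 hr against 0 hr they called 2303 to 2850. With 1 library left out, the number of members called ranged from 0 to 1 for WM repopulating against control at 6 hr, 8 to 10 for control and 6 to 8 for WM repopulating mice at 6 hr against 0 hr, 2 to 3 for WM repopulating mice at 24 hr, 6 to 8 for control and 1 to 3 for WM repopulating mice between 6 and 24 hr. It stayed at 1, 1 and 0 in SVZ tissue, 2 for control at 24 hr, and 0 in the other comparisons. Over all genes, calls with 1 library left out numbered 23 to 75 for WM repopulating against control at 6 hr. At 6 hr against 0 hr they numbered 4581 to 5507 in control and 4211 to 4540 in WM repopulating mice. At 24 hr against 0 hr they numbered 1882 to 2051 in WM repopulating mice. Between 6 and 24 hr they numbered 3126 to 3879 in control and 1400 to 1838 in WM repopulating mice.

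Sign changes concerned Tlr3 in SVZ tissue, Tlr2 and Cd14 at 6 hr and the difference of responses of Tlr2 at 24 hr, all without a call. The last, near 0, gave -0.0116 with the replicate block and -0.116 to 0.108 with 1 library left out. Tlr3 after PLX3397 against control gave 0.0122 under quantile normalization and -0.161 to 0.0823 with 1 library left out (above 0 without control replicate 2, or without replicate 1, at 0.041 with or without the filter). Tlr3 after recovery gave -0.0853 to 0.158 against control (below 0 without control replicate 4 or recovery replicate 1) and -0.000624 to 0.124 against PLX3397 (below 0 without recovery replicate 1). Between WM repopulating and control mice at 6 hr, Tlr2 gave -0.783 to 0.155 with 1 library left out (above 0 without control replicate 2), and Tlr2 gave 0.616 and Cd14 0.153 without replicates 2 and 4. For Tlr4 at 6 hr in control the adjusted p was 0.0361 under quantile normalization, 0.0474 with a stricter filter, 0.0135 without 6 hr replicate 3 and 0.0347 without 6 hr replicate 5. For Tlr6 it was 0.0433 without 0 hr replicate 2 and 0.0211 without 6 hr replicate 3.

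Replicate numbers were treated as names only, since not every pair of same-numbered libraries correlated above 0.1: their deviations correlated at -0.155 to 0.486 in the SVZ table, -0.190 to 0.266 in the LPS table and 0.0562 to 0.137 in the GLOBAL table, where the median was 0.102 against -0.0411 for other pairs. With the number as a replicate block, 1 member (Tlr3, 0.81, adjusted p = 0.0389) was called between WM repopulating and control mice at 6 hr, 9 in control and 8 in WM repopulating mice at 6 hr against 0 hr, and as many as without it in the other comparisons. Over all genes the GLOBAL comparison went from 0 to 55 calls. Across the alternative settings that left out no library, 16 to 45 genes were called between WM repopulating and control mice at 6 hr. At 6 hr against 0 hr the range was 4433 to 5450 genes in control and 4843 to 5414 in WM repopulating mice. The cause of these shifts was not tested. Depth limits Tlr8 in both sorted tables and Tlr2, Tlr4, Tlr7 and Tlr13 in SVZ tissue, where 1 read is a visible share of each value.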

Other observations

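The level of Tlr9 in unstimulated control microglia was 3.43 to 4.17 FPKM in the LPS table and 32.0 to 39.4 FPKM in the GLOBAL table, which placed it 9th and 4th among the 10 genes. Tlr13 ran the other way, at 54.1 to 70.2 FPKM in the LPS table and 40.2 to 43.9 FPKM in the GLOBAL table, and was 3rd in both. The tables were normalized separately, so no test was made between them.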
